A study of Homo sapiens with 24 samples.

Results

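The genes described here are the cyclins that act in the G1 phase of the cell cycle, the kinases they bind and CDC25A, the phosphatase that removes an inhibitory mark from CDK2. They were chosen by name, as the rows of the gene count table whose Ensembl identifier maps to CCND1, CCND2, CCND3, CCNE1, CCNE2, CDK2, CDK4, CDK6 or CDC25A. All 9 were found among the 60668 rows, and all 9 were among the 22158 genes with enough counts to be tested. The libraries came from 3D cultures of MCF-10A, an immortalised, non-tumour human mammary epithelial line, and of MCF-10A MYC-ER, which carries MYC fused to the ligand-binding domain of the oestrogen receptor. 4-hydroxytamoxifen (4-OHT) binds that domain and lets the fused MYC enter the nucleus, while the parental line shows what 4-OHT does without the fusion.

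Cells were grown on Matrigel, a basement membrane extract, and all cultures were collected on day 5. They had received 1 µM 4-OHT for 0, 8, 24 or 48 h before collection, so that the 0 h cultures had the same age as the treated ones. The labels give day 3 as the start of treatment for all groups, also those of 0, 8 and 24 h. They do not say how this goes with the shorter times. Each of the 8 line-by-time groups has 3 libraries, 24 in all. The labels do not say what the 0 h cultures received in place of 4-OHT, whether the MYC-ER line is a single clone, what drives the fusion, or whether the replicates came from separate cultures. The p-values below therefore measure the spread between these libraries, which may be technical in part.

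Cells commit to division late in G1. Growth signals raise the D cyclins (CCND1, CCND2, CCND3), which bind CDK4 and CDK6 and start the phosphorylation of the retinoblastoma protein RB1. RB1 then releases E2F factors, which switch on the E cyclins (CCNE1, CCNE2) and other genes of DNA replication, and cyclin E with CDK2 completes the step into S phase. CDC25A takes the inhibitory phosphate off CDK2, and CDK inhibitors such as CDKN1B (p27) hold these kinases back. MYC is known to bind the E-box CACGTG, and CCND2 and CDK4 are textbook MYC targets.

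RefSeq promoter windows (assembly GRCh38.p14, from 250 bases before a start site to 50 after it) were at hand for 5 of the 9 genes, namely CCND3, CCNE1, CDK4, CDK6 and CDC25A. They were searched on both strands for the E-box CACGTG and for TTTGGCGC and TTTCCCGC, which are forms of the E2F site, and no 2 of these words share a base in the matches found. CDK4 and CDC25A are shown because their windows held an E-box or an E2F word before the start site. In the CDK4 window CACGTG began at bases -216, -196 and -101, counted from the start site. The 2 stretches of 30 bases below, on the minus strand at chr12:57752499-57752528 and chr12:57752394-57752423, hold these 3 E-boxes in capitals. In the GENCODE v29 annotation 23 of the first 30 bases and all 30 of the second lie in annotated exons of the minus strand, within the span of the CDK4 gene.
CDK4, bases -218 to -189: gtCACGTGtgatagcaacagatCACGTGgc
CDK4, bases -113 to -84: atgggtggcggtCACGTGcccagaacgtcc
Of 35116 windows of this length, 7.26% held at least 1 CACGTG and 0.094% held 3 or more. The CDC25A window held the E2F word TTTGGCGC at base -44, shown in capitals in the 250 bases before the start site at chr3:48188418-48188667 (minus strand). These bases overlap no annotated exon of that strand.
CDC25A, bases -250 to -1: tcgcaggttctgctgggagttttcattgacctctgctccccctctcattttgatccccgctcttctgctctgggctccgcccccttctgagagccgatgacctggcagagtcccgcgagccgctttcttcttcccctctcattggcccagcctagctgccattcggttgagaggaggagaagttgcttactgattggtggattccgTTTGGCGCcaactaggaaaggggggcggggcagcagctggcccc
That word was present in 0.652% of the windows. Beyond these, 1 of the 2 CDK6 windows held a CACGTG at base 30 after the start site, and the windows of CCND3 (3 of them) and CCNE1 held none of the words searched. A match describes the letters of the window and is not evidence of binding.

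Library totals ran from 136860029 to 182438505 counts, a 1.33-fold range. Each library was counted once. Replicates of a group always differed by more than sampling noise (chi-square per degree of freedom), which does not show that they came from separate cultures. The parental 0 h libraries stood furthest apart, at 159 to 261 over their 3 pairs against 8.45 to 63.3 over the 21 pairs of the other groups. They are the baseline of all parental changes and of the interactions, and calls that change without 1 of them are named below. The basal keratin KRT5 averaged 13284 CPM (a gene's counts relative to the TMM-scaled total of its library) in parental and 12528 CPM in MYC-ER cultures at 0 h, and the basal factor TP63 108 and 141 CPM. KRT14, another basal keratin, stood at 9725 and 626 CPM, and the 5 basal markers summed to 22645 to 28412 CPM in parental and 13852 to 14337 CPM in MYC-ER libraries at 0 h. Of 4 leukocyte markers PTPRC and CD3E were at 0 in both 0 h groups, while CD68 averaged 13.3 and 16.7 CPM and CD14 7.56 and 3.71 CPM in parental and MYC-ER cultures, and the list summed to 8.28 to 26.5 CPM over all libraries. Of 3 endothelial markers CDH5 was at 0 and PECAM1 at 1.06 and 0.113 CPM. The summed level of 4 fibroblast markers was 369 to 377 CPM in the MYC-ER 0 h libraries and 77.3 to 133 CPM in the other groups, mostly from COL1A1 and DCN, with PDGFRB at 0.678 to 1.51 CPM in the group means. Sums of 5 epithelial markers moved with 4-OHT in MYC-ER, from 349 to 368 CPM at 0 h to 808 to 862 CPM at 8 h, 565 to 586 CPM at 24 h and 635 to 668 CPM at 48 h, against 422 to 589 CPM in the parental libraries. EPCAM among them went from 1.93 to 23.8, 75.8 and 38.9 CPM and KRT18 from 97.0 to 503, 227 and 214 CPM. The basal sum was 13994 to 15594 CPM at 8 h, 9674 to 10105 CPM at 24 h and 9317 to 10003 CPM at 48 h in MYC-ER. These sums move with the 0 h comparisons and the MYC-ER time course below, and their part in either was not tested. The row of MYC itself averaged 387, 795, 321 and 248 CPM at 0, 8, 24 and 48 h in MYC-ER and 463 to 532 CPM in the parental groups. The sources used here do not say whether reads of the fusion fall into that row.

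After 8 h of 4-OHT all 9 genes rose in the MYC-ER line, by 1.31-fold (CDK2) to 8.88-fold (CCNE2), and all 9 were still above their 0 h level at 24 h. At 48 h every one of the 9 had fallen against 24 h. In bulk RNA a change in the share of cycling cells and a change in the level per cell cannot be told apart. A gene is said to rise or fall where edgeR's quasi-likelihood test gave an adjusted p under 0.05 over the 22158 genes tested, and changes are log2 differences with their standard error. These counts stand against a large background. At 8 h 67.6% of the genes tested passed in either direction, 32.2% as higher and 35.4% as lower. At 24 h 61.6% passed, 30.4% as higher and 31.2% as lower. The ranges of the 2 groups did not overlap for 73.5% of all genes at 8 h against 0 h and for 70.7% at 24 h. At 48 h 7 of the 9 genes were above and 1 (CCNE1) below the 0 h level, where 44.1% of all genes tested passed (23.4% higher and 20.7% lower). At 8, 24 and 48 h the median log2 change of the 9 was 1.58, 1.30 and 0.33, beside -0.10, -0.02 and 0.03 over all genes tested.

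**Figure D1:**
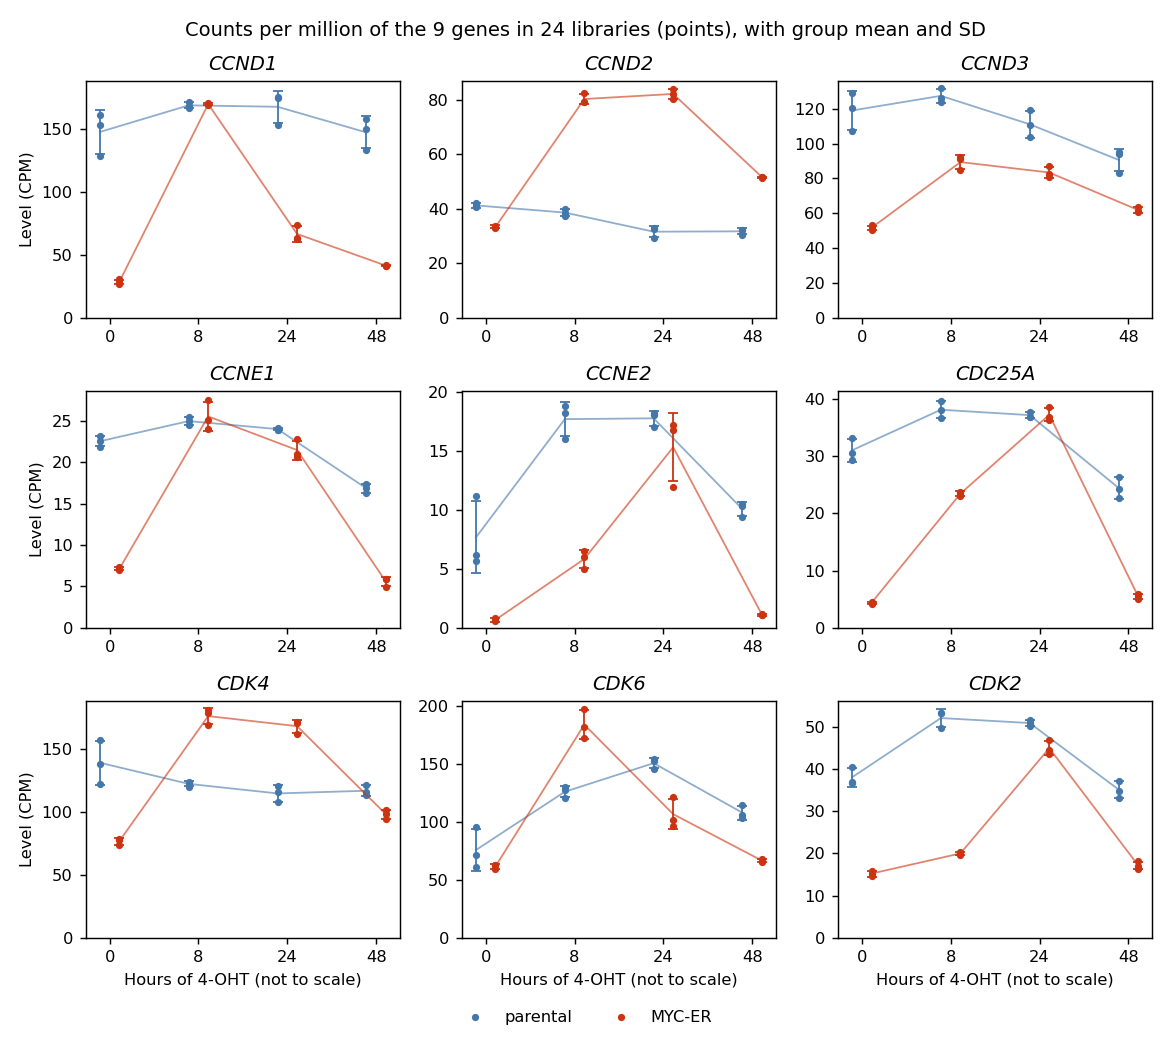
Level of each of the 9 genes (CPM, linear axis from 0) against hours of 4-OHT (0, 8, 24 and 48, evenly spaced and not to scale) in parental MCF-10A (blue) and MYC-ER (red). Points are the 3 libraries of a group, lines join group means and bars are the SD; in MYC-ER the D cyclins, CCNE1, CDK4 and CDK6 are already high at 8 h, while CCNE2, CDK2 and CDC25A are highest at 24 h.

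Among the D cyclins CCND1 (cyclin D1, ENSG00000110092.3, chr11:69641087-69654474, plus strand) had the largest and shortest rise. In the MYC-ER libraries it stood at 30.2, 28.0 and 26.9 CPM at 0 h and at 171, 169 and 168 CPM at 8 h. It was at 73.2, 63.4 and 62.4 CPM at 24 h and at 41.8, 41.0 and 40.8 CPM at 48 h. No group of this line overlapped another, and the level at 8 h was 6-fold that at 0 h. The change was 2.58 ± 0.08 at 8 h (adjusted p = 6.73e-17), 1.23 ± 0.08 at 24 h (adjusted p = 1.31e-11) and finally 0.54 ± 0.08 at 48 h (adjusted p = 9.56e-06). Between 8 and 24 h it fell by 1.35 ± 0.08 (adjusted p = 3.84e-12). The 12 parental libraries held 128 to 175 CPM, with no change past the test at any time (0.19 at 8 h, 0.18 at 24 h). The 8 h value passed without parental 0 h replicate 1 (0.26, adjusted p = 0.0337) or 2 (0.22, adjusted p = 0.046). The 24 h value passed without either of these, parental 8 h replicate 1 or parental 24 h replicate 2 (0.21 to 0.25, adjusted p = 0.0242 to 0.0493). Both also passed with library size alone, with at least 10 counts in every library and with DESeq2's Wald test (adjusted p = 0.0401 to 0.0486). The MYC-ER mean at 8 h (169 ± 1.07 CPM, SD, n = 3) thus lay within the parental range, and the difference between the lines at 8 h was 0.01, with a 95% interval of -0.16 to 0.17. The exons of CCND1 share 497 bases with LTO1 on the opposite strand, so its low counts are uncertain if strand was not used in counting. LTO1 averaged 20.7 CPM over all libraries, taken on plain library totals.

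CCND2 (cyclin D2, ENSG00000118971.8, chr12:4273772-4305350, plus strand) rose as CCND1 did but did not come down between 8 and 24 h. Its MYC-ER libraries held 33.4, 33.8 and 32.8 CPM at 0 h and 82.4, 79.3 and 79.3 CPM at 8 h. They held 84.2, 82.3 and 80.2 CPM at 24 h and 51.7, 51.8 and 51.3 CPM at 48 h. The 8 and 24 h libraries overlapped each other and lay above every other library of the study. The change was 1.27 ± 0.04 at 8 h (adjusted p = 2.35e-16) and then 1.30 ± 0.04 at 24 h (adjusted p = 1.64e-16), and 0.63 ± 0.04 remained at 48 h (adjusted p = 1.21e-10). From 8 to 24 h it moved by 0.03 (interval -0.06 to 0.12), which did not pass the test. That value depends on how libraries are scaled. With library size alone it was 0.24 (adjusted p = 4.2e-05), a setting that moved the median of all genes in this comparison from 0.05 to 0.26, and with upper-quartile scaling 0.14 (adjusted p = 0.00869). In the parental line CCND2 went the other way, from 40.5 to 42.1 CPM at 0 h to 29.3 to 32.9 CPM at 24 h, and fell by 0.39 ± 0.04 at 24 h (adjusted p = 1.7e-06) and by 0.38 ± 0.04 at 48 h (adjusted p = 4.36e-06). With the GC and length trends described below removed these falls were larger, -0.66 and -0.65, and the 8 h value of -0.095 became a fall too (-0.24, adjusted p = 0.0056).

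CCND3 (cyclin D3, ENSG00000112576.12, chr6:41934933-42050357, minus strand) moved least of the D cyclins. MYC-ER libraries stood at 51.2, 50.5 and 53.0 CPM at 0 h, 92.0, 84.8 and 91.2 CPM at 8 h, 86.9, 82.4 and 80.7 CPM at 24 h and 63.5, 61.4 and 60.5 CPM at 48 h. The 8 and 24 h libraries overlapped each other, with a difference of -0.10 (interval -0.24 to 0.03) that turned to 0.11 with library size alone and 0.0036 with upper-quartile scaling, and passed as -0.14 (adjusted p = 0.0183) with GC and length trends removed. Both groups lay above the 0 h libraries. It rose by 0.79 ± 0.07 at 8 h (adjusted p = 4.42e-10) and then by 0.69 ± 0.07 at 24 h (adjusted p = 4.99e-09), with 0.26 ± 0.06 left at 48 h (adjusted p = 0.00242), which was 0.42 with library size alone and 0.14 with GC and length trends removed, past the test in both. The parental libraries held 104 to 132 CPM up to 24 h and 83.1 to 94.9 CPM at 48 h, a fall of 0.39 ± 0.06 against 0 h (adjusted p = 7.7e-05) that was lost once GC and length trends were removed (-0.13, adjusted p = 0.0656). The parental values at 8 h (0.10) and 24 h (-0.10) did not pass, but the first did without parental 0 h replicate 3 (0.17, adjusted p = 0.0483) and the second without parental 0 h replicate 2 (-0.17, adjusted p = 0.0243). With the trends removed both passed as rises, of 0.28 (adjusted p = 0.000328) and 0.19 (adjusted p = 0.00613). MYC-ER libraries did not reach the parental level of the same time at any point, with differences of -0.51 at 8 h (adjusted p = 9.44e-07), -0.41 at 24 h (adjusted p = 1.47e-05) and finally -0.55 at 48 h (adjusted p = 2.32e-07).

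The partners of the D cyclins, CDK4 and CDK6, both rose at 8 h and then parted. CDK4 (ENSG00000135446.17, chr12:57747727-57756013, minus strand), whose window holds the 3 E-boxes printed above, stood at 73.5, 78.1 and 78.8 CPM in MYC-ER at 0 h and at 181, 169 and 178 CPM at 8 h. It was at 172, 171 and 162 CPM at 24 h and at 98.8, 102 and 94.2 CPM at 48 h. The 8 and 24 h libraries overlapped, and both groups lay above all parental libraries, which held 108 to 157 CPM. CDK4 rose by 1.199 ± 0.07 at 8 h (adjusted p = 6.59e-13), 1.13 ± 0.07 at 24 h (adjusted p = 2.22e-12) and finally 0.35 ± 0.07 at 48 h (adjusted p = 0.000154), the last being 0.23 (adjusted p = 0.000378) with GC and length trends removed. The change from 8 to 24 h was -0.07 (interval -0.21 to 0.07) and did not pass the test. It turned to 0.14 with library size alone (adjusted p = 0.0337) and 0.04 with upper-quartile scaling, and was -0.16 (adjusted p = 0.00527) with the GC and length trends described below removed. Its exons overlap 1369 exonic bases of TSPAN31 on the opposite strand, and whether the authors' counting used strand is not given in the sources used here. The TSPAN31 row held 30.1 ± 2.14 CPM at 0 h and 18.0 ± 1.26 CPM at 8 h in MYC-ER (SD, n = 3).

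CDK6 (ENSG00000105810.9, chr7:92604921-92836594, minus strand) stood at 62.6, 62.3 and 59.1 CPM in MYC-ER at 0 h and at 182, 197 and 172 CPM at 8 h. It was down to 121, 96.6 and 102 CPM at 24 h and 65.1, 66.4 and 67.4 CPM at 48 h. Its 8 h libraries were the highest of all 24, and no other MYC-ER group overlapped them. The rise was 1.58 ± 0.11 at 8 h (adjusted p = 2.49e-11) and then 0.79 ± 0.11 at 24 h (adjusted p = 1.33e-06), and the 48 h value of 0.11 (interval -0.11 to 0.34) did not pass. It passed at 0.14 (adjusted p = 0.0133) with GC and length trends removed and at 0.12 (adjusted p = 0.00764) with only the groups compared in the fit. From 8 to 24 h CDK6 fell by 0.79 ± 0.11 (adjusted p = 1.96e-06). CDK6 also rose in the parental line, from 71.0, 95.04 and 60.5 CPM at 0 h to 120.4, 129.7 and 127 CPM at 8 h, 152, 145 and 154 CPM at 24 h and 114, 103 and 106 CPM at 48 h. No treated parental library overlapped the 0 h ones, of which replicate 2 was the highest.

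The E cyclins rose together at 8 h and differed later. CCNE1 (cyclin E1, ENSG00000105173.14, chr19:29811898-29824308, plus strand) stood at 6.93, 7.15 and 7.30 CPM in MYC-ER at 0 h, 27.5, 24.1 and 25.2 CPM at 8 h, 22.8, 21.1 and 20.7 CPM at 24 h and 5.93, 5.83 and 4.90 CPM at 48 h. The 48 h libraries lay below the 0 h libraries, and CCNE1 was the only 1 of the 9 to end below its start. It rose by 1.84 ± 0.07 at 8 h (adjusted p = 4.52e-16) and then 1.59 ± 0.07 at 24 h (adjusted p = 5.71e-15), and was lower by 0.36 ± 0.07 than at 0 h by 48 h (log2 change -0.36, adjusted p = 0.000136), a value that was -0.20 with library size alone (adjusted p = 0.0175). Its parental libraries held 21.9 to 25.5 CPM up to 24 h and 16.3 to 17.4 CPM at 48 h, a fall of 0.42 ± 0.06 against 0 h (adjusted p = 4.48e-05). With GC and length trends removed that fall was -0.20 (adjusted p = 0.026), and CCNE1 rose in parental cultures by 0.27 at 8 h (adjusted p = 0.00414) and then by 0.32 at 24 h (adjusted p = 0.000774), where the values of 0.15 and 0.09 had not passed. The fall of 0.25 ± 0.06 between 8 and 24 h in MYC-ER (adjusted p = 0.00238) was lost with library size alone (-0.04, adjusted p = 0.573) and with upper-quartile scaling (-0.15, adjusted p = 0.0649).

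CCNE2 (cyclin E2, ENSG00000175305.17, chromosome 8) had the largest rise of the 9. Its MYC-ER libraries held 0.818, 0.533 and 0.613 CPM at 0 h (94 to 141 counts) and 5.99, 6.46 and 5.00 CPM at 8 h. They held 17.1, 16.8 and 11.95 CPM at 24 h and 1.03, 1.18 and 1.03 CPM at 48 h. No group overlapped another, and the level went on climbing after 8 h. The rise was 3.15 ± 0.22 at 8 h (adjusted p = 2.74e-11) and then 4.55 ± 0.23 at 24 h (adjusted p = 1.21e-13), which is 23.3-fold, with a further 1.40 ± 0.19 from 8 to 24 h (adjusted p = 2.34e-06). By 48 h it had fallen by 3.82 ± 0.22 against 24 h (adjusted p = 2.47e-12). What was left at 48 h, 0.72 ± 0.22 above 0 h (adjusted p = 0.0119), was 0.59 (adjusted p = 0.0677) without MYC-ER 0 h replicate 2. Its exons share 1629 bases with INTS8 on the opposite strand, so its counts are uncertain if strand was not used. INTS8 averaged 50.6 to 63.0 CPM over the 8 groups and was at 58.7, 58.0 and 57.8 CPM in MYC-ER at 0, 8 and 24 h.

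The parental line held 6.17, 11.1 and 5.60 CPM of CCNE2 at 0 h, 16.0, 18.8 and 18.2 CPM at 8 h, 17.0, 18.0 and 18.2 CPM at 24 h and 9.37, 10.3 and 10.5 CPM at 48 h. Replicate 2 at 0 h was well above the other two and overlapped the 48 h libraries, but lay below all libraries of 8 and 24 h. CCNE2 rose by 1.21 ± 0.19 at 8 h (adjusted p = 9.29e-05) and by the same 1.21 ± 0.19 at 24 h (adjusted p = 4.13e-05) in the line without the fusion. The 48 h value of 0.39 (adjusted p = 0.11) did not pass, and became 0.77 (adjusted p = 0.00018) without parental 0 h replicate 2.

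CDK2 (ENSG00000123374.11, chr12:55966769-55972784, plus strand), the kinase of the E cyclins, was late. Its MYC-ER libraries held 14.5, 15.9 and 15.2 CPM at 0 h and 20.2, 19.6 and 20.2 CPM at 8 h. They held 44.6, 46.9 and 43.6 CPM at 24 h and 18.1, 17.1 and 16.4 CPM at 48 h. The 24 h libraries stood apart from all other MYC-ER libraries, while the 8 h libraries were only slightly above those of 0 h. It rose by 0.39 ± 0.06 at 8 h (adjusted p = 1.65e-06) and then by 1.56 ± 0.06 at 24 h (adjusted p = 3.26e-16), with 1.17 ± 0.06 of this between 8 and 24 h (adjusted p = 8.01e-14). The 48 h remainder of 0.18 ± 0.06 (adjusted p = 0.0129) was lost without MYC-ER 0 h replicate 1 (0.14, adjusted p = 0.0775) or MYC-ER 48 h replicate 1 (0.14, adjusted p = 0.0862), and once GC and length trends were removed (0.09, adjusted p = 0.267), while library size alone gave 0.34. The 8 h rise was 0.26 with upper-quartile scaling (adjusted p = 0.000124). In the parental line CDK2 went from 36.7 to 40.7 CPM at 0 h to 49.9 to 53.5 CPM at 8 h, a rise of 0.45 ± 0.05 (adjusted p = 4.75e-06), and the rise at 24 h was 0.42 ± 0.05 (adjusted p = 5.86e-06). The parental 48 h value of -0.11 did not pass, but did without parental 48 h replicate 3 (-0.16, adjusted p = 0.0369). Upper-quartile scaling gave -0.16 as well (adjusted p = 0.0153).

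CDC25A (ENSG00000164045.12, chr3:48157146-48188402, minus strand) went from 4.15, 4.38 and 4.51 CPM at 0 h in MYC-ER to 23.8, 23.6 and 22.97 CPM at 8 h. It reached 38.6, 36.9 and 36.4 CPM at 24 h and was back at 5.93, 5.48 and 4.97 CPM at 48 h. The 4 groups did not overlap. It rose by 2.43 ± 0.07 at 8 h (adjusted p = 7.33e-18) and then 3.10 ± 0.07 at 24 h (adjusted p = 1.34e-19), an 8.58-fold difference, and fell by 2.77 ± 0.07 from 24 to 48 h (adjusted p = 6.91e-18). At 24 h the level was that of the parental line, 36.9 to 37.8 CPM, with a difference between the lines of 0.00 (interval -0.13 to 0.14). Parental libraries moved far less, up by 0.30 ± 0.06 at 8 h (adjusted p = 0.00144) and then by 0.26 ± 0.06 at 24 h (adjusted p = 0.00215) and down by 0.34 ± 0.06 at 48 h (adjusted p = 0.000223).

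**Figure D2:**
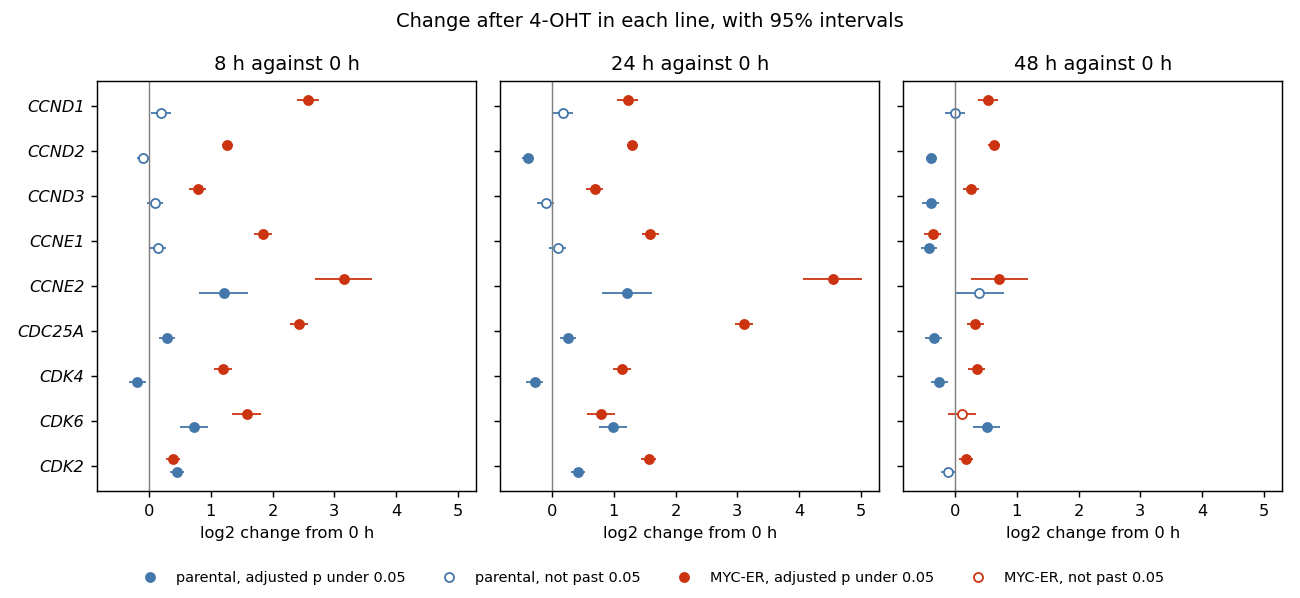
Log2 change against 0 h of the same line for each of the 9 genes at 8, 24 and 48 h, MYC-ER in red and parental in blue. Points are the fitted changes, open where the adjusted p was not under 0.05, and bars their 95% intervals; the largest MYC-ER changes are those of CCNE2 (3.15) and CCND1 (2.58) at 8 h and of CCNE2 (4.55) and CDC25A (3.10) at 24 h, and the parental changes lie between -0.42 and 1.21.

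Between 8 and 24 h of MYC-ER activation the 9 genes split into 3 groups. CCND1, CDK6 and CCNE1 fell, CCNE2, CDK2 and CDC25A rose further, and CCND2, CCND3 and CDK4 did not pass the test. This is 3 higher and 3 lower of 9 in a comparison where 55.5% of all genes passed, 28.4% as higher and 27.1% as lower. The places of CCNE1, CCND2, CCND3 and CDK4 depend on the fit. With library size alone and with upper-quartile scaling CCNE1 did not pass (-0.04 and -0.15), and CCND2 passed as a rise (0.24 and 0.14). CDK4 passed as a rise with library size alone (0.14). With GC and length trends removed CDK4 (-0.16) and CCND3 (-0.14) passed as falls. From 24 to 48 h all 9 fell, with 53.7% of all genes past the test, 28.2% as higher and 25.5% as lower. CCNE2, CDC25A and CCNE1 lost most in this last step (-3.82, -2.77 and -1.95) and CCND3 least (-0.43).

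Before any 4-OHT the MYC-ER line was low in these genes. All 9 were lower than in parental cultures at 0 h, with 64.3% of all genes past the test, 31.6% as higher and 32.7% as lower. The difference was -3.54 ± 0.22 for CCNE2 (adjusted p = 5.8e-12), -2.84 ± 0.07 for CDC25A (adjusted p = 6.56e-19) and -2.38 ± 0.08 for CCND1 (adjusted p = 2.7e-16). It was smaller for CCNE1 (-1.66), CDK2 (-1.32), CCND3 (-1.21), CDK4 (-0.86) and CCND2 (-0.31), none of which overlapped between the lines. Of all genes tested, 65% did not overlap between the lines at 0 h. CDK6 at -0.30 ± 0.11 (adjusted p = 0.0193) overlapped between the lines and was lost without parental 0 h replicate 2 (-0.10, adjusted p = 0.281) or MYC-ER 0 h replicate 3 (-0.27, adjusted p = 0.0637), with library size alone (-0.27, adjusted p = 0.0568) and with only the groups compared in the fit (-0.30, adjusted p = 0.125). With GC and length trends removed it was -0.83 (adjusted p = 2.68e-13), and CCND2 was -0.59 (adjusted p = 1.39e-08). The differences of CCNE1 (-1.42), CDK2 (-1.15), CCND3 (-0.92), CDK4 (-0.60) and CDC25A (-2.76) were smaller in that fit. CCNE2 was then at -3.74 and CCND1 at -2.37.

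At 8 h the lines differed in 7 of the 9 genes, beside 48.6% of all genes (23.1% higher and 25.5% lower). CCND2 (1.06), CDK6 (0.55) and CDK4 (0.53) were now higher in MYC-ER, and CCND3, CCNE2 (-1.60), CDK2 (-1.38) and CDC25A (-0.70) were still lower. For CCNE1 the difference was 0.03 (interval -0.10 to 0.17), which passed as 0.20 (adjusted p = 0.0147) with GC and length trends removed. At 24 h 7 of the 9 differed, beside 49.4% of all genes (23.5% higher and 25.8% lower), with CCND2 (1.38) and CDK4 (0.55) higher and CCND1 (-1.33), CDK6 (-0.50), CCND3, CDK2 (-0.18) and CCNE1 (-0.16) lower. The CCNE1 call at 24 h (adjusted p = 0.0445) was lost in 17 of 34 other fits. Among them are those without any of the 3 parental 24 h or 3 parental 8 h libraries, parental 0 h replicate 3, MYC-ER 0 h replicates 2 or 3, MYC-ER 8 h replicate 3 or MYC-ER 24 h replicates 2 or 3 (adjusted p up to 0.156). The CDK2 difference at 24 h was -0.05 and that of CDK4 at 48 h -0.11 with library size alone and -0.08 and -0.11 with upper-quartile scaling, none past the test. At 48 h all 9 differed, beside 56.7% of all genes (27.3% higher and 29.4% lower), and the other 8 beside CCND2 (0.70) were lower in MYC-ER. The order of the levels over the 8 groups shows the same. The MYC-ER 0 h group was the lowest for 7 of the 9 genes, namely CCND1, CCND3, CCNE2, CDK2, CDK4, CDK6 and CDC25A. Its libraries did not overlap the next group for any of them, the next being MYC-ER at 48 h in each case. Between these 2 groups the ranges did not overlap for 62.3% of all genes tested. The share of all genes that were lowest in the MYC-ER 0 h group was not counted, so the 7 of 9 has no background.

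The change under 4-OHT, taken with its sign, was higher in MYC-ER than in parental cultures for 8 of the 9 genes at 8 h and for 8 at 24 h. This is by the test of the line-by-time interaction, with 55.2% and 54.5% of all genes past that test (27.3% and 27.7% as higher). At 48 h the change was higher for 6 and lower for CDK6, where 45% of all genes passed (23.6% as higher and 21.4% as lower). Among the 6, CCND3 was at 0.26 in MYC-ER and -0.39 in parental cultures, and CDC25A at 0.33 and -0.34. The CDK6 value (-0.40, adjusted p = 0.0373) was lost in 13 fits, among them those without parental 0 h replicates 1 or 3, parental 48 h replicate 1, MYC-ER 0 h replicates 1 or 2 or any MYC-ER 48 h library, and turned to 0.20 (adjusted p = 0.0141) with GC and length trends removed. It was -0.60 (adjusted p = 7.18e-05) without parental 0 h replicate 2. CDK2 was the exception at 8 h. Its change was 0.39 in MYC-ER and 0.45 in parental cultures, a difference of -0.06 (interval -0.22 to 0.10). CDK6 was the exception at 24 h, with a change of 0.79 against 0.99 and a difference of -0.20 (interval -0.52 to 0.12). That value became -0.40 (adjusted p = 0.003) without parental 0 h replicate 2 and turned to 0.43 (adjusted p = 3.62e-06) with GC and length trends removed. At 48 h the difference did not pass for CCNE1 (0.06, interval -0.13 to 0.25) and CCNE2 (0.33, interval -0.28 to 0.94). With the trends removed CCNE2 passed as higher (0.65, adjusted p = 0.0342) and CCNE1 as lower (-0.28, adjusted p = 0.0223). In that fit CCNE1 fell further in MYC-ER (-0.49) than in parental cultures (-0.20).

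In the parental line 4 of the 9 genes rose and 1 (CDK4) fell at 8 h, beside 31% of all genes (15% higher and 16% lower). At 24 h 4 rose and 2 (CDK4, CCND2) fell, beside 42.9% (21.2% higher and 21.7% lower). At 48 h 1 (CDK6) was higher and 5 (CCND2, CCND3, CCNE1, CDK4, CDC25A) lower than at 0 h, beside 40.5% (20.4% higher and 20.1% lower). CDK6 and CCNE2, the genes with the largest parental rises, have the lowest GC content of the 9 (39.5% and 36.9% in the longest transcript, against 45.5% to 56.2%). CDK6 also has the longest transcript of the 9 (11612 bases), followed by CCND2 (6480 bases), which fell. Over 9784 genes the parental changes ran with GC content, with Spearman correlations of -0.62, -0.66 and -0.65 at 8, 24 and 48 h, while those of MYC-ER lay between -0.06 and 0.03. With transcript length the parental correlations were 0.39, 0.55 and 0.60, and those of MYC-ER -0.11, -0.13 and -0.10. The difference between the lines at 0 h had correlations of -0.26 with GC content and 0.38 with length. For the interactions at 8, 24 and 48 h they were 0.23, 0.25 and 0.46 with GC content and -0.25, -0.38 and -0.47 with length. These are correlations across genes, which are not independent replicates. The parental 48 h value of CDK6 (0.51) was 0.23 (adjusted p = 0.019) with the GC trend alone removed. With the GC and length trends of each library removed, CDK6 rose by 0.41 at 8 h (adjusted p = 8.43e-07) and by 0.41 at 24 h (adjusted p = 6.15e-07), and its 48 h value was -0.06 (adjusted p = 0.348). CCNE2 then rose by 0.99 (adjusted p = 7.22e-05) and 0.90 (adjusted p = 0.000139) at 8 and 24 h. The parental falls of CDK4 (-0.19, -0.28 and -0.25 at 8, 24 and 48 h) were -0.04, -0.03 and -0.01 in that fit and did not pass. They were also lost at 8 h (-0.08, adjusted p = 0.365) and 48 h (-0.12, adjusted p = 0.101) without parental 0 h replicate 3, and the 24 h fall was then -0.16 (adjusted p = 0.0259). At 8 h the call was lost too without parental 0 h replicate 1 or any parental 8 h library (adjusted p = 0.0756 to 0.109). With only the 2 groups compared in the fit, none of the parental CDK4 calls passed (adjusted p = 0.24, 0.0911 and 0.143 at 8, 24 and 48 h). The parental calls of CDC25A (adjusted p = 0.0643, 0.0583 and 0.0535 at 8, 24 and 48 h) and of CDK6 at 48 h (adjusted p = 0.0522) did not pass there either.

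Set per length, the balance within each family changed. Levels were divided by the exonic length of each gene (CPM per kilobase), and a gene's share is its part of the family's sum. The D cyclins summed to 19.4 ± 0.29 CPM per kilobase in MYC-ER at 0 h, then 61.7 ± 0.96 at 8 h, 39.6 ± 2.05 at 24 h and finally 26.4 ± 0.39 at 48 h (SD, n = 3), and to 50.5 to 62.2 in the parental group means. CCND1 held 30.2% ± 1.42 of that sum in MYC-ER at 0 h, then 56.9% ± 0.74 at 8 h, 34.7% ± 1.33 at 24 h and finally 32.3% ± 0.09 at 48 h. Parental cultures had 48.5% to 61.3% of it as CCND1 in every library, a range that the MYC-ER libraries entered at 8 h and at no other time. CCND2 held 18.0% to 29.6% in the MYC-ER libraries and 7.40% to 10.8% in the parental ones, with no overlap. Shares depend on the length chosen. With the longest transcript in place of all exons, CCND3 had a larger share than CCND1 in all 4 parental groups (55.0% against 37.9% at 0 h), so the order of these 2 genes is not settled, while the CCND1 share was higher at 8 h than at 0 h in MYC-ER with both lengths (19.8% and 44.2% here).

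CCNE1 was the more abundant E cyclin per length in every group. The CCNE2 share of their sum was 5.07% ± 1.19 in MYC-ER at 0 h, then 11.7% ± 1.62 at 8 h, 29.03% ± 3.43 at 24 h and finally 10.2% ± 0.89 at 48 h (SD, n = 3). In parental cultures it was 16.2% ± 5.70 at 0 h, then 29.03% ± 1.34 at 8 h, 29.96% ± 0.72 at 24 h and finally 25.6% ± 1.41 at 48 h. The shares were not tested. Of the 3 kinases together CDK4 held 71.7% to 76.6% in the MYC-ER libraries at all times. The CDK2 share was 11.6% to 12.1% at 0 h. It was 6.71% to 6.88% at 8 h and then 15.2% to 16.3% at 24 h, without overlap.

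**Figure D3:**
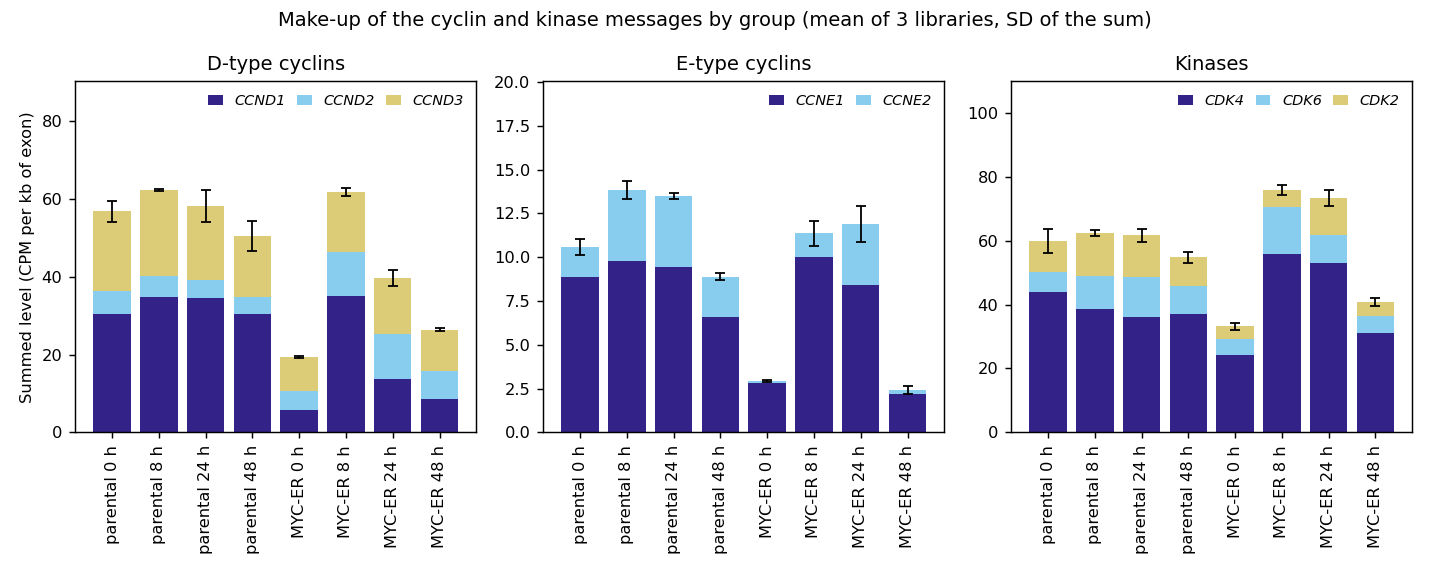
Summed level per kilobase of exon (CPM per kilobase, stacked bars from 0, mean of 3 libraries, error bar the SD of the sum) of the D cyclins, the E cyclins and the 3 kinases in the 8 groups, with 1 colour for each gene. The D-cyclin bar of MYC-ER grows from 19.4 at 0 h to 61.7 at 8 h, mostly through CCND1, and the CCNE2 part of the E cyclins in MYC-ER is largest at 24 h.

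The other genes of the G1/S circuit were read from a list of 39, of which 37 were tested. In MYC-ER 24 were higher and 9 lower at 8 h, 27 and 6 at 24 h and 20 and 8 at 48 h, where the percentages of all genes given above for the 9 apply. In the parental line 10 were higher and 7 lower at 8 h, 11 and 8 at 24 h and 6 and 14 at 48 h, beside 15% and 16%, 21.2% and 21.7%, and 20.4% and 20.1% of all genes. The largest rises in MYC-ER at 8 h were PKMYT1, a kinase that inhibits CDK1 (4.83 ± 0.16, adjusted p = 7.66e-17), and the activating factors E2F2 (4.403 ± 0.15) and E2F1 (4.04 ± 0.13). The largest falls were the CDK inhibitors CDKN1C, p57 (-2.15 ± 0.10, adjusted p = 3.93e-14), CDKN2C, p18 (-1.33 ± 0.10), and CDKN1B, p27 (-1.29 ± 0.07).

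At 24 h the largest rises were PKMYT1 (7.79 ± 0.16), E2F2 (6.92 ± 0.16) and the mitotic phosphatase CDC25C (6.25 ± 0.12). CDKN1C was still down (-2.08 ± 0.10), followed by TFDP2, an E2F partner (-0.59 ± 0.05), and RBL2, the RB relative p130 (-0.51 ± 0.09). By 48 h CDC25C (5.00), PKMYT1 (4.71) and E2F2 (3.72) were still up, while the largest 48 h change among the 9 genes was 0.72. These 3 started from low levels, 0.267, 0.287 and 0.204 CPM in MYC-ER at 0 h, and stood at 8.60, 7.53 and 2.70 CPM at 48 h. At 0 h 5 genes of the list were higher and 28 lower in MYC-ER than in parental cultures, beside 31.6% and 32.7% of all genes tested. CDKN1C (1.89), RBL2 (1.32) and CDKN1B (0.73) were the largest among the higher, and PKMYT1 (-7.54), E2F2 (-5.96) and CDC25C (-5.77) among the lower. CDKN2A and CDKN2B, whose locus MCF-10A cells are known to have lost, had no count in any library, so that a level of up to 0.0219 CPM (3 counts in the smallest library) remains possible.

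Of the parts of the circuit, 9 of 10 E2F and DP factors and all 3 parts of the CDK-activating kinase (CDK7, CCNH, MNAT1) rose at 8 h in MYC-ER, where 32.2% of all genes tested were higher and 35.4% lower. None of the 5 tested CDK inhibitors rose and 3 fell at that time. At 24 h 8 of the 10 factors and again all 3 kinase parts were up, with 1 inhibitor up and 3 down, beside 30.4% of all genes higher and 31.2% lower. In the parental line at 8 h 4 of the 10 factors rose and 1 fell, none of the 3 kinase parts passed, and 2 of the 5 inhibitors fell, beside 15% of all genes higher and 16% lower. These groups are small, and nothing particular to them is read from the counts.

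**Figure D4:**
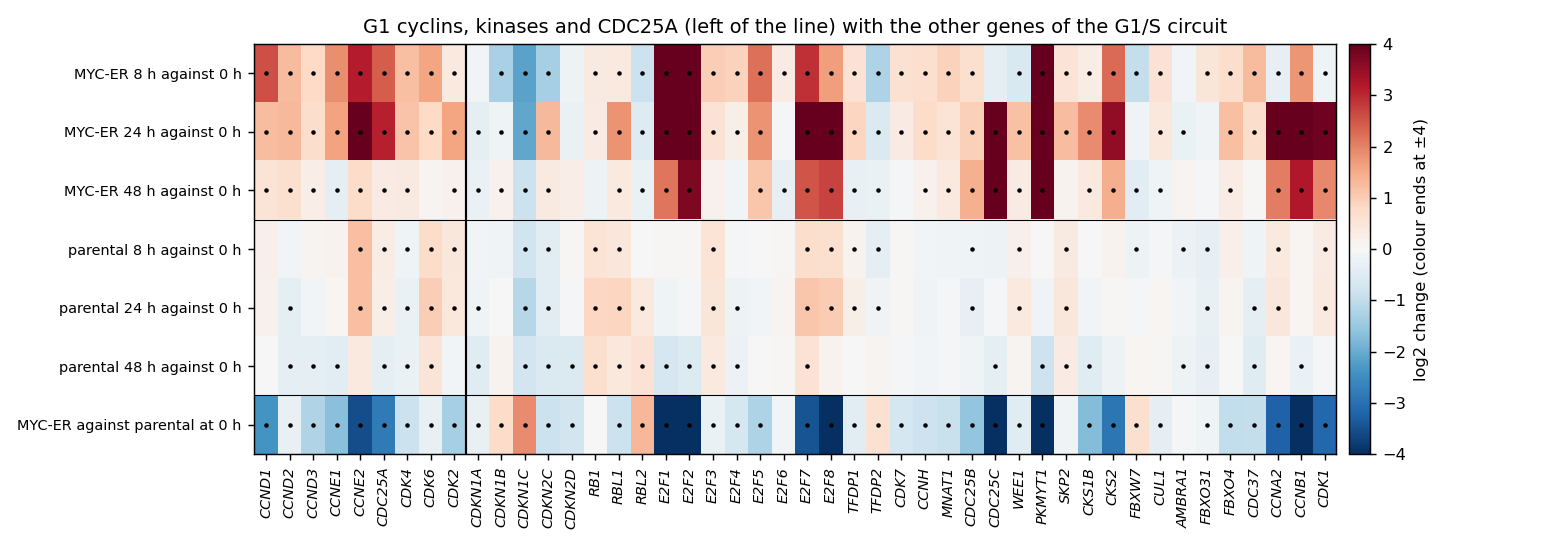
Log2 change (colour, red higher and blue lower, scale ending at ±4) of the 9 genes, left of the line, and the 37 tested genes of the G1/S list at 8, 24 and 48 h against 0 h in MYC-ER and in parental cultures, with the difference between the lines at 0 h in the bottom row. A dot marks an adjusted p under 0.05; the 9 genes are dotted as higher at 8 and 24 h in MYC-ER and as lower in the bottom row, and CDKN1C is dotted as lower in all 6 rows against 0 h.

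Genes whose pattern was most like that of each of the 9 were looked up by Pearson correlation of log2 CPM over the 8 group means, among 10632 genes. These values describe 8 points that share 2 lines and 4 times, and no test was made. MST1R, a receptor tyrosine kinase, followed CCND1 most closely (r = 0.999), at 45.6 CPM at 0 h and 176, 84.4 and 61.3 CPM at 8, 24 and 48 h in MYC-ER and 162 to 190.0 CPM in parental cultures. TRIT1, a tRNA-modifying enzyme, was nearest to CCND2 (r = 0.982) and PYCR1, a proline-synthesis enzyme, came next (r = 0.978). ASL was nearest to CCND3 (r = 0.997), HNRNPAB to CCNE1 (r = 0.9925), IMPDH1 to CDK4 (r = 0.995) and AGPS to CDK6 (r = 0.982). IMPDH1, which makes a precursor of guanine nucleotides, went from 60.4 to 333, 272 and 101.5 CPM over the 4 times in MYC-ER. DBF4, which activates the kinase that fires replication origins, was nearest to CCNE2 (r = 0.991), and WDR76 to CDK2 (r = 0.992). MAGOHB was nearest to CDC25A (r = 0.9955) and also among the 3 nearest to CCNE2 (r = 0.9901).

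Among themselves CCNE2 and CDC25A were closest over the 8 group means (r = 0.98), then CCNE1 and CDC25A (r = 0.95) and CCNE2 and CDK2 (r = 0.93). CCND2 stood apart from the other cyclins, with r of -0.06 with CCND1, -0.10 with CCND3, 0.17 with CCNE1 and 0.06 with CCNE2. Its highest value among the 9 was with CDK4 (r = 0.72). CCND1 and CCND3 had r of 0.91.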

How the data were processed

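Poly(A) RNA was sequenced from libraries made with a strand-specific kit, read as 150-base pairs, per the labels' protocols. The authors deposited whole-number counts per gene for 24 libraries, not normalised. The submitters' processing notes name Trimmomatic 0.39, STAR, StringTie 2.1.3b and GRCh38 without their roles, so counts may be estimates from coverage. The counting program, its strand setting and the annotation are not given in the sources used here. Symbols and GENCODE v29 lengths and coordinates were joined on Ensembl identifiers without version.

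Counts were filtered with filterByExpr by group (22158 genes), scaled by TMM and modelled with edgeR 4.0.16 (under R 4.3.3, limma 3.58.1) with 1 mean per group over all 24 libraries. Tests were two-sided quasi-likelihood F tests, adjusted by Benjamini-Hochberg within each of 15 contrasts, with a threshold of 0.05. The standard error is the log2 change divided by the root of F, intervals are 95%, and log2 CPM used a prior count of 2. The fit was tested on simulated data. The 9 genes, the lists and the naming rules were chosen with earlier results of these data known. From the G1/S list the 3 largest rises and 3 largest falls past the test are named in a contrast, and the 3 genes of highest correlation per gene, among those with at least 10 CPM in their highest group. Same-numbered replicates did not deviate together, so replicate numbers were not used as pairs. Alternatives were DESeq2 1.42.0 and its size factors, scaling by the upper quartile or by library size alone, no filter, at least 10 counts in every library, a fit of only the groups compared, a replicate block, leaving out each library and, chosen after seeing the data, GC and length trends removed by lowess (span 0.3).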

Additional observations from a re-analysis of the deposited data

Results flagged for a closer look

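The change under 4-OHT differed between the lines, by the interaction test over all 24 libraries, for most of the 9 genes. Each value here is a log2 difference, the change in MYC-ER less that in parental cultures. At 8 h it was 2.38 for CCND1, 1.36 for CCND2, 0.69 for CCND3, 1.70 for CCNE1, 1.94 for CCNE2, 1.39 for CDK4, 0.85 for CDK6 and 2.14 for CDC25A, with adjusted p from 3.05e-14 (CDC25A) to 6.12e-05 (CDK6).

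At 24 h it was 1.04 for CCND1, 1.69 for CCND2, 0.79 for CCND3, 1.502 for CCNE1, 3.33 for CCNE2, 1.14 for CDK2, 1.41 for CDK4 and 2.84 for CDC25A, with adjusted p from 2.06e-16 (CDC25A) to 1.94e-07 (CCND3). CCND2 and CDK4 are the genes whose lines moved in opposite directions at 24 h, up in MYC-ER and down in parental, although the parental fall of CDK4 did not pass with GC and length trends removed.

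At 48 h the difference was 0.54 for CCND1, 1.01 for CCND2, 0.65 for CCND3, 0.29 for CDK2, 0.61 for CDK4 and 0.67 for CDC25A, with adjusted p up to 0.00407 (CDK2). For CDK6 it was -0.40 (adjusted p = 0.0373), the only negative value to pass. With GC and length trends removed its sign turned (0.20, adjusted p = 0.0141). In that fit the CDK2 value at 48 h was 0.06 (adjusted p = 0.592), and those of CCND3 (0.27, adjusted p = 0.00426) and CDK4 (0.24, adjusted p = 0.00581) were smaller but passed. CCND3 at 24 h was 0.4955 there (adjusted p = 3.74e-06).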

How the results depend on the processing

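Of 135 values (9 genes in 15 comparisons) 113 passed the test, and 96 of these passed in each of 34 other fits, 24 of which left out 1 library. Of all genes tested, 31% to 67.6% passed in a comparison. How often the calls of genes in general held in the other fits was not counted. All calls of the 9 genes at 8 and 24 h against 0 h in MYC-ER were kept in each of the 34. With only the groups compared in the fit, the count of the 9 called in parental cultures was 3, 4 and 3 at 8, 24 and 48 h (5, 6 and 6 over all libraries). That of all genes was 1452, 4923 and 3274 (6870, 9503 and 8978). With GC and length trends removed the count of the 9 in parental cultures was 7, 7 and 3 at 8, 24 and 48 h (5, 6 and 6). The count of all genes in that fit alone is not given here, so these counts have no background. Over the alternatives other than leaving out 1 library, all genes called ran from 1452 to 7587 at 8 h. At 24 h they ran from 4923 to 9914 and at 48 h from 3274 to 9379.

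Values that changed sign were near 0 in most cases. With library size alone these were CCND3 (0.11) and CDK4 (0.14) from 8 to 24 h in MYC-ER, CCND1 in parental at 48 h (0.0492), and CCND1 (-0.0727) and CCNE1 (-0.0491) between the lines at 8 h. With upper-quartile scaling they were CCND3 (0.0036) and CDK4 (0.0369) from 8 to 24 h, and CCND1 (-0.0331) and CCNE1 (-0.0092) between the lines at 8 h. CDC25A between the lines at 24 h was -0.0077 with no filter and -0.0155 with the GC trend removed, and CCND1 between the lines at 8 h was -0.0128 with at least 10 counts in every library. CCND1 in parental at 48 h was 0.0035 with only the groups compared and 0.0377 with the GC trend removed. With the GC trend removed, CCND2 from 8 to 24 h was -0.0859, CCND3 in parental at 24 h 0.12, and the interaction of CDK6 at 24 h 0.0387 and of CCNE1 at 48 h -0.13. With GC and length trends removed, CCND3 in parental at 24 h was 0.19 (adjusted p = 0.00613), CDK2 and CDK6 in parental at 48 h 0.021 and -0.0598, the interaction of CDK6 0.43 at 24 h (adjusted p = 3.62e-06) and likewise 0.20 at 48 h (adjusted p = 0.0141), and that of CCNE1 at 48 h -0.28 (adjusted p = 0.0223). The cause was not tested.

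The share of calls that were higher moved with the scaling. With library size alone it was 73.8% in place of 53% for MYC-ER at 48 h, 67.8% in place of 51.2% from 8 to 24 h, 60.7% in place of 47.6% and 59.8% in place of 48.2% between the lines at 24 and 48 h, and 63.5% in place of 52.5% for the interaction at 48 h. With the upper quartile it was 58.4% and 59.7% between the lines at 24 and 48 h.

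Leaving out 1 library turned the sign of values that had not passed. CCND1 in parental at 48 h ran from -0.0638 to 0.0636, CCNE2's interaction at 48 h from -0.0495 to 0.52, CDC25A between the lines at 24 h from -0.0222 to 0.0189 and CCNE1 between the lines at 8 h from -0.0224 to 0.0753.

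Same-numbered replicates had a mean correlation of 0.00226 (-0.0776 to 0.0943 over 84 pairs), and 10 of 24 libraries were closest to their own number. With the replicate block the counts of the 9 genes called did not change, and the sign of CCND1 in parental at 48 h (-0.0035) turned to 0.00085. Depth limits CCNE2 in MYC-ER at 0 h (94 to 141 counts a library). Intervals cover the spread between libraries only.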

Other observations

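Of the later cyclins and their kinase, CCNB1 rose at 8 h in MYC-ER (1.78), while CCNA2 (-0.33) and CDK1 (-0.17) fell. At 24 h all 3 rose, CCNA2 by 4.05, CCNB1 by 5.04 and CDK1 by 3.90, and at 48 h they were still 2.04, 3.199 and 1.93 above 0 h. CDKN2C went from -1.33 at 8 h to 1.31 at 24 h, and CDKN1B from -1.29 at 8 h to -0.16 at 24 h and 0.17 at 48 h, each past the test. These genes were singled out after their values were seen.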
